A study of Mus musculus with 12 samples.

Results

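The BCL2 family genes followed here encode 10 proteins that decide whether the outer mitochondrial membrane stays intact. They were chosen by symbol, as the rows of the authors' deposited edgeR table named Bbc3, Pmaip1, Bcl2l11, Bid, Bad, Bax, Bak1, Mcl1, Bcl2l1 and Bcl2, and all 10 were found among its 15478 genes. RNA came from undifferentiated neural precursor cells, isolated from adult female C57BL/6 mice aged 5 to 12 weeks. The 3 groups hold 4 samples each, treated with 100 µM hydrogen peroxide for 1 h, with the same dose for 8 h, or with phosphate-buffered saline as a sham, and the study's design text says that each of 4 animals gave a sample to every group. Poly-A RNA was sequenced with a stranded kit. The deposited tables hold fold changes and tests but no values of single samples, so no value per animal can be shown and the depth of each sample is unknown. Their names say that outlier samples were removed, so the number of samples behind each test is at most 4 per group and is otherwise unknown.

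BCL2 family proteins fall into 3 classes. Effectors, BAX and BAK, form pores in the outer mitochondrial membrane and let cytochrome c out, which starts the caspase cascade. Survival proteins such as BCL2, BCL-XL and MCL1 bind effectors and hold them inactive. BH3-only proteins such as PUMA, NOXA, BIM, BID and BAD sense damage or lost growth signals and either occupy the survival proteins or activate the effectors directly. The genes of PUMA and NOXA are well-known targets of p53, and in mice Bax is needed for the normal death of many newly born neurons.

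Before treatment effects, the level of each gene was set against the others. The mean over all samples in the authors' deposited table, divided here by exon length, ran from 7.15 log2 CPM per kb for Bax to 1.47 for Bcl2. CPM scales a read count to its library size, and the median over all genes of the table was 2.37 log2 CPM per kb. After Bax, on the scale of log2 CPM per kb computed from the authors' deposited table, came Mcl1 at 6.13, Bak1 at 5.60 and Bcl2l1, which encodes BCL-XL, at 4.70. BH3-only genes were lower, with 4.25 log2 CPM per kb for Pmaip1 (NOXA), 4.12 for Bbc3 (PUMA), 3.33 for Bad, 2.08 for Bcl2l11 (BIM) and 1.89 for Bid, all from the authors' deposited table. This mean pools control and treated samples, so the levels of Pmaip1 and Bbc3 include the rises described below, and their order against Bad holds for the pooled mean only. Both effector genes stood above every BH3-only gene, and Bcl2 was the lowest of the 3 survival genes. Whether neighbours in this order differ beyond their spread could not be judged, since the table gives no spread of a level. The exon length used is that of all exons of a gene in the table, which counts long untranslated ends and little-used exons in full.

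**Figure D1:**
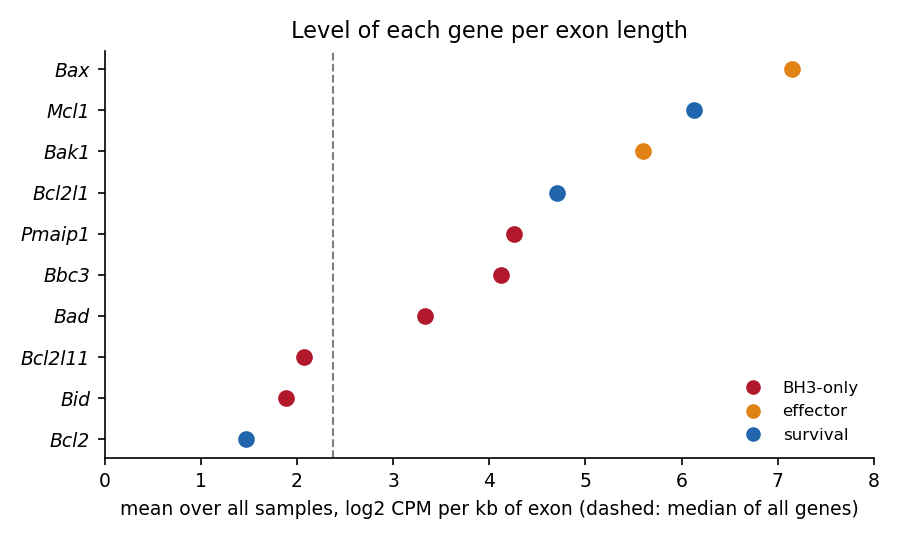
Mean level of each gene over all samples, in log2 CPM per kb of exon, computed from the authors' deposited table, with 1 point per gene coloured by class and no error because the table gives none. Bax, at 7.15, and Mcl1, at 6.13, lie far to the right of the dashed line at 2.37, the median of all genes, and Bcl2l11, Bid and Bcl2 lie to its left.

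The label of the cells was checked against marker genes. Of the 10 markers of neural stem and progenitor cells sought, 10 were in the authors' deposited table, with mean levels up to 11.97 log2 CPM for Vim, 10.60 for Nes and 8.43 for Sox2, and down to 4.11 for Pax6 and 1.56 for Hes5. Some markers of other types were abundant as well. The highest were Mbp of oligodendrocytes at 10.27 log2 CPM, Aldh1l1 of astrocytes at 9.26 and Map2 of neurons at 9.10 in the authors' deposited table. The lowest of the same lists were Mog at 1.43, S100b at 4.74 and Rbfox3 at 0.74 log2 CPM. These levels were not divided by exon length. All 5 oligodendrocyte markers and 5 of 6 neuron markers fell at 8 h in the authors' deposited table, with medians of -0.88 and -1.19 on the log2 scale. Of 6 microglia markers 2 were present and of 5 endothelial markers 2, the highest of them P2ry12 at 0.37 log2 CPM in the authors' deposited table. Of the 10 precursor markers 1 rose and 3 fell at 1 h and 3 rose and 6 fell at 8 h, and of 4 astrocyte markers 3 fell at each time, in the authors' deposited table. Beside these counts, 20.5% of all genes rose and 22.2% fell at 1 h, and 27.4% rose and 28.2% fell at 8 h. The 3 precursor markers falling at 1 h and the 3 rising at 8 h, each 30.0%, are near these shares. In a culture of mixed cells, fewer cells of a type and less RNA per cell cannot be told apart. The part of cell makeup in the changes below was not tested.

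The first question was how many of the 10 genes changed, and in which direction. After 1 h, 6 of the 10 rose and 2 fell at an adjusted p below 0.05 in the authors' deposited table, whereas 20.5% of all genes rose and 22.2% fell. After 8 h, 8 rose and 1 fell, against 27.4% and 28.2% of all genes. Between 1 h and 8 h of peroxide, 4 rose and 3 fell, against 30.3% and 32.4% of all genes. The median log2 fold change of the 10 genes, from the authors' deposited table, was 0.12 after 1 h and 0.36 after 8 h, and the later group exceeded the earlier by a median of 0.09. Over all genes these medians were 0.013, 0.005 and -0.014. No test was made of these counts, because the genes were listed with earlier results of these data known. The comparisons with control share their control samples, and no label says when control cells were harvested. Time in culture and peroxide therefore cannot be told apart in them. The same holds between 1 h and 8 h, since no sham is labelled for either time.

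**Figure D2:**
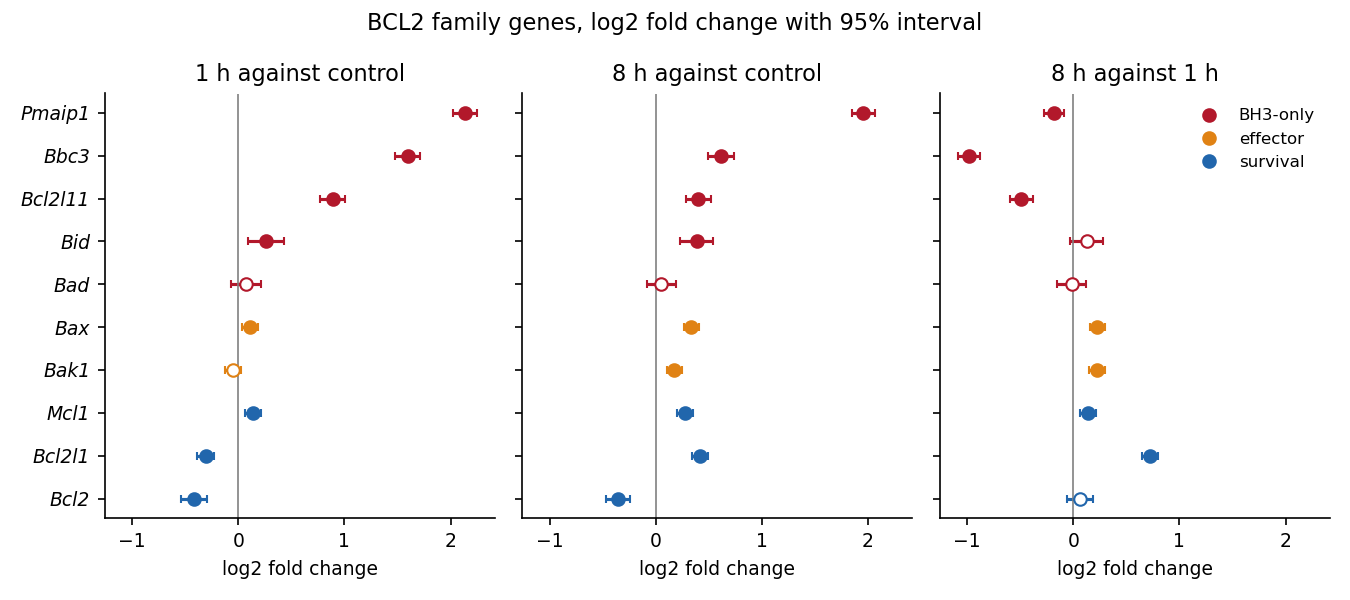
Log2 fold change of each BCL2 family gene in the 3 comparisons of the authors' deposited table, with bars for the 95% interval computed here from the implied standard error, filled points for genes with an adjusted p below 0.05 and open points for the others. Pmaip1, Bbc3 and Bcl2l11 stand to the right of 0 at 1 h and move left between 1 h and 8 h, while Bcl2l1 lies left of 0 at 1 h and right of it at 8 h.

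Against control, the largest changes of any member at 1 h and at 8 h were those of the BH3-only genes Pmaip1 and Bbc3. Pmaip1, whose product NOXA binds MCL1, rose 4.4-fold at 1 h in the authors' deposited table, a log2 fold change of 2.14 ± 0.06 (adjusted p 5.6e-304). The value after ± is the standard error implied by the authors' likelihood ratio. That ratio, 1410, was the highest of all 15478 genes in this comparison, while by log2 fold change Pmaip1 ranked 92 in the authors' deposited table. At 8 h Pmaip1 was still 3.88-fold above control in the authors' deposited table, with a log2 fold change of 1.95 ± 0.06 (adjusted p 4.2e-264). It fell slightly between 1 h and 8 h, by 0.18 ± 0.05 in the authors' deposited table (adjusted p 0.00018), so that most of the early rise persisted.

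Bbc3, which encodes PUMA, an inhibitor of all main survival proteins, rose early and then lost much of its rise. It was 3.03-fold above control at 1 h in the authors' deposited table, at a log2 fold change of 1.60 ± 0.06 (adjusted p 2.5e-151), and its likelihood ratio ranked 7 of all genes. At 8 h it stood 1.53-fold above control in the authors' deposited table, at 0.61 ± 0.06 (adjusted p 5.4e-22). The direct comparison of 8 h with 1 h in the authors' deposited table gives a fall of 0.98 ± 0.06 (adjusted p 9.7e-70), a level 1.98-fold lower than at 1 h.

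Bcl2l11, whose product BIM binds survival proteins and also activates BAX directly, had the same course at a smaller size. It rose 1.85-fold at 1 h in the authors' deposited table, a log2 fold change of 0.89 ± 0.06 (adjusted p 2.2e-47), and its likelihood ratio ranked 75. At 8 h it was 1.32-fold above control, by 0.40 ± 0.06 (adjusted p 1.2e-10), and it fell by 0.49 ± 0.06 between the times (adjusted p 1.6e-17), both in the authors' deposited table. Pmaip1, Bbc3 and Bcl2l11 were thus the 3 members that rose at 1 h and fell from 1 h to 8 h.

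Bid and Bad behaved differently. Bid, whose product is cut by caspase-8 to link death receptors to mitochondria, rose 1.2-fold at 1 h in the authors' deposited table, with a log2 fold change of 0.26 ± 0.09 (adjusted p 0.0069). It was 0.39 ± 0.08 above control at 8 h (adjusted p 4.2e-06), and 8 h and 1 h differed by 0.12 with an interval from -0.03 to 0.28 (adjusted p 0.16), in the authors' deposited table. Bad, whose product is held inactive by growth factor signalling, was called in none of the comparisons of the authors' deposited table. Its log2 fold change there was 0.07 at 1 h (95% interval -0.07 to 0.21, adjusted p 0.45) and 0.05 at 8 h (-0.08 to 0.19, adjusted p 0.53). These intervals were computed here from the implied standard error, and both contain 0.

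Sequence before the start sites was searched for motifs in 9 of the 10 genes. RefSeq start sites on GRCm38.p6 were used, 15 sites in all, and the 250 bases before each were searched on both strands. Pmaip1 was left out of this search, so whether sequence before its start holds a match was not tested. The motifs were AP-1 (TGANTCA), FOXO (GTAAACA), the composite C/EBP-ATF site (TGATGNAA), E2F (TTTCCCGC) and the 10-base p53 response element arm, which is palindromic. No motif overlapped another in these windows. A FOXO match lay 227 to 221 bases before the Bcl2l11 start on chromosome 2, and another 167 to 161 bases before the middle of 3 Bbc3 starts on chromosome 7, on the opposite strand. The bases after a start were found in a GENCODE M21 transcript of the gene for 11 of the 15 sites, but for none of the 3 Bbc3 starts, and this Bbc3 window lies inside the gene as GENCODE draws it, which begins at 16308393. A p53 arm lay 201 to 192 bases before the Bax start on chromosome 7. Of all 32851 windows of this length, 3.17% hold the FOXO letters, 7.13% the p53 arm, 6.75% the AP-1, 3.45% the C/EBP-ATF and 0.895% the E2F letters. The other 12 windows of members hold none of the 5. Among these are the windows of Bid and Mcl1, which rose at 1 h and 8 h, and of Bak1 and Bcl2l1, which rose at 8 h. However, the Bak1 window and windows 2 and 3 of Bcl2l1 lie wholly in annotated exons. The Mcl1 start was also not among the 11 found in a transcript. Whether members hold more matches than all windows was not tested. The 3 windows with a match are shown 5′ to 3′ on the gene's strand, with the matched letters in capitals.
Bcl2l11, GRCm38.p6 chr2:128125788-128126037, plus strand: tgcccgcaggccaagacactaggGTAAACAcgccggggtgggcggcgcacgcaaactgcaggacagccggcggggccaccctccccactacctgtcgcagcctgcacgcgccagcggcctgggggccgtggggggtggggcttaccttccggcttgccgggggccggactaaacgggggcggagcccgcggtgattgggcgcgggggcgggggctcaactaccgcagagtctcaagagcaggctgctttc
Bbc3, GRCm38.p6 chr7:16310011-16310260, plus strand: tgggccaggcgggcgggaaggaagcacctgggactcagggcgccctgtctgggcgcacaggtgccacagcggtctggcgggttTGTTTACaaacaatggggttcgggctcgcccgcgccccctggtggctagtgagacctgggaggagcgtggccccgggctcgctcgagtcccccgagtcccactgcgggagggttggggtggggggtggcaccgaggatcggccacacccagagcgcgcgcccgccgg
Bax, GRCm38.p6 chr7:45466899-45467148, minus strand: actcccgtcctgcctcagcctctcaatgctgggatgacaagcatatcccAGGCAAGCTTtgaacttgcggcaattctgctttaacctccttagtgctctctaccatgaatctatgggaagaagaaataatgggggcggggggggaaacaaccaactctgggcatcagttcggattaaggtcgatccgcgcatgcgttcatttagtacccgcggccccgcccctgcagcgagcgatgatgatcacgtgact
The Bcl2l11 and Bbc3 windows are rich in G and C, 72.0% and 72.4% of bases, against 54.0% for Bax and a median of 52.4% over all windows. A match of letters is a description of the sequence, and binding was not measured.

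The effector genes, whose products form the pore, changed by little. Bax rose by 0.11 ± 0.04 on the log2 scale at 1 h (adjusted p 0.0086) and by 0.33 ± 0.04 at 8 h (adjusted p 8.3e-20), a 1.26-fold rise, in the authors' deposited table. Bak1 was at -0.05 at 1 h (95% interval -0.125 to 0.025, adjusted p 0.30) and rose by 0.17 ± 0.04 at 8 h (adjusted p 8.7e-06) in the authors' deposited table. From 1 h to 8 h both rose by nearly the same amount, Bax by 0.22 ± 0.04 and Bak1 by 0.22 ± 0.04, with adjusted p of 1.5e-09 and 7.8e-09 in the authors' deposited table. Bax was also the most abundant of the 10 genes per length, by the mean that pools control and treated samples.

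Among the survival genes, each of the 3 followed its own course. Bcl2l1, whose main product BCL-XL protects neurons and their precursors, fell 1.24-fold at 1 h, to -0.31 ± 0.04 on the log2 scale (adjusted p 1.9e-12), in the authors' deposited table. By 8 h it had risen 1.33-fold above control, 0.42 ± 0.04 (adjusted p 1.7e-25), and the rise from 1 h to 8 h was 1.65-fold, 0.72 ± 0.04 (adjusted p 4.2e-71), in the authors' deposited table. It was the only member called in opposite directions at 1 h and 8 h. Mcl1, which encodes a short-lived survival protein, rose by 0.14 ± 0.04 at 1 h (adjusted p 0.0014) and by 0.28 ± 0.04 at 8 h (adjusted p 1.8e-12) in the authors' deposited table, a rise of 0.14 ± 0.04 between the times (adjusted p 0.00054). Bcl2, the founding member of the family, fell 1.34-fold at 1 h, to -0.42 ± 0.06 (adjusted p 2.4e-10), and was still 1.28-fold below control at 8 h, at -0.36 ± 0.06 (adjusted p 5.6e-09), in the authors' deposited table. The difference between the times was 0.06 (95% interval -0.06 to 0.19, adjusted p 0.37) in the authors' deposited table.

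Gene span moved with the 1 h values. Among protein-coding genes of the table, the eighth with the longest spans, over 118.1 kb, had a median log2 fold change of -0.25 at 1 h and -0.14 at 8 h, and the shortest eighth, up to 5.7 kb, had 0.12 and 0.04. Bcl2 spans 176.1 kb and is in that longest eighth, and Bcl2l1 at 51.1 kb is in the sixth, whose median was -0.05 at 1 h and 0.01 at 8 h. Bcl2l11 at 36.5 kb is in the fifth, with a median of 0.01 at 1 h, and Bbc3 and Pmaip1, at 9.8 and 7.0 kb, are in the second, with 0.08. Bax and Mcl1, at 5.2 and 4.4 kb, are in the shortest eighth, and their 1 h rises of 0.11 and 0.14 are near its median of 0.12. At 8 h they had 0.33 and 0.28, against its 0.04. Bid is in the fourth, with a median of 0.04 at 1 h against its own 0.26. Bak1 and Bad, not called at 1 h, are in the second as well. The part of span in the change of any member was not tested.

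**Figure D3:**
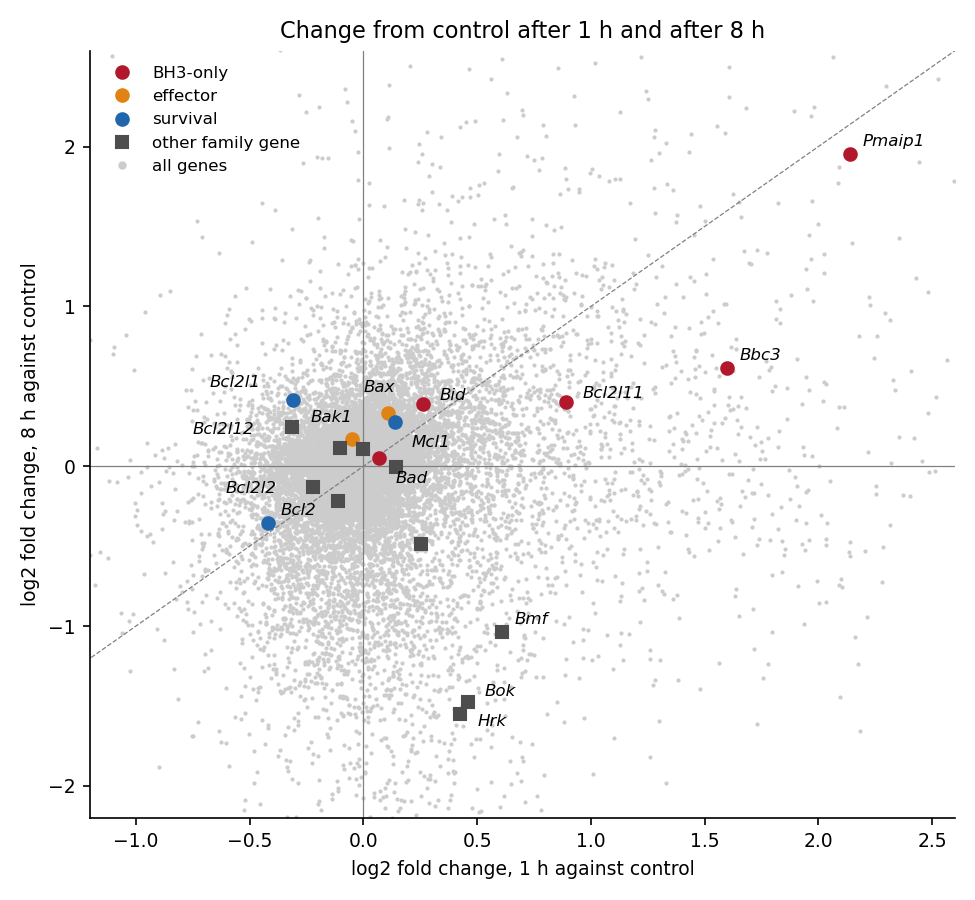
Log2 fold change at 1 h (x axis) and at 8 h (y axis) against control from the authors' deposited table, with 1 grey point per gene, the 10 members as coloured circles, 10 other family genes as dark squares, 5 of them named after their values were seen, and a dashed line of equal change. The axes leave out 203 genes, and both use the same control samples. Pmaip1 lies near the dashed line at 2.14 and 1.95, Bbc3 and Bcl2l11 lie below it, Bcl2l1 lies above 0 at the left, and Bok, Bmf and Hrk lie at the lower right.

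On GRCm38, GENCODE M21 places Pmaip1 on chromosome 18 from 66458533 to 66465565, Bid on chromosome 6 from 120891930 to 120916853, Bad on chromosome 19 from 6941861 to 6951899, Bak1 on chromosome 17 from 27019810 to 27029009 and Mcl1 on chromosome 3 from 95658788 to 95663176. It places Bbc3 on chromosome 7 from 16308393 to 16318205, Bax on chromosome 7 from 45461697 to 45466898, Bcl2l11 on chromosome 2 from 128126038 to 128162547, Bcl2l1 on chromosome 2 from 152780668 to 152831728 and Bcl2 on chromosome 1 from 106538178 to 106714274. Exons of Bak1, Bid and Bad overlap exons of a gene on the opposite strand that is also in the table, and no source used here states the strand setting of the counting, so reads of such pairs cannot be told apart. The partner of Bid is another family gene, Bcl2l13, whose 3′ end overlaps that of Bid and which fell at both times when Bid rose, by 0.11 ± 0.04 at 1 h (adjusted p 0.020) and 0.22 ± 0.04 at 8 h (adjusted p 2.0e-07) in the authors' deposited table. Gpr137, beside Bad, had -0.02 at 1 h (adjusted p 0.71), and Ggnbp1, beside Bak1, had -0.02 (adjusted p 0.96) at a mean of only 0.01 log2 CPM, in the authors' deposited table. No upstream gene of the table on the same strand lies within 50 kb of Bbc3, Pmaip1, Bak1, Bcl2l11 or Bcl2l1. The nearest to Mcl1 is E330034L11Rik, 17.7 kb away, which had a log2 fold change of 1.04 at 1 h in the authors' deposited table. Those of the remaining members had smaller values at 1 h. They were 0.06 for Dhdh near Bax, 0.16 for Kdsr near Bcl2, -0.23 for Mical3 near Bid and 0.20 for Trmt112 near Bad.

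Of 16 other genes listed here as of the family or related to it, called other family genes in the figures, 10 were in the authors' deposited table. At 1 h 3 of them rose and 4 fell, at 8 h 2 rose and 5 fell, and their median log2 fold change was 0.07 and -0.17. Of all genes, 20.5% rose and 22.2% fell at 1 h, and 27.4% rose and 28.2% fell at 8 h, shares that also stand behind the counts of the lists that follow. Bok, Bmf and Hrk fell furthest at 8 h. Bok, which encodes a relative of BAX, rose by 0.46 ± 0.10 at 1 h (adjusted p 4.7e-05) and then fell, to -1.48 ± 0.12 at 8 h (adjusted p 1.0e-33), in the authors' deposited table. Bmf, a BH3-only gene, took the same course with 0.61 ± 0.13 at 1 h (adjusted p 1.3e-05) and -1.04 ± 0.15 at 8 h (adjusted p 4.2e-12) in the authors' deposited table. Hrk, a BH3-only gene active in neurons, had 0.43 ± 0.22 at 1 h (adjusted p 0.11) and fell to -1.55 ± 0.26 at 8 h (adjusted p 2.1e-08), at a mean of only 0.36 log2 CPM in the authors' deposited table. From 1 h to 8 h these 3 fell by 1.94, 1.65 and 1.98, more than any of the 10 members did, in the authors' deposited table. Of the members, the deepest such fall was the 0.98 of Bbc3.

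The other 7 changed by less. Bcl2l2, the gene of the survival protein BCL-W, fell by 0.22 ± 0.05 at 1 h (adjusted p 2.1e-05) and 0.13 ± 0.05 at 8 h (adjusted p 0.0083) in the authors' deposited table. Bcl2l12 had the same order of signs as Bcl2l1, with -0.31 ± 0.09 at 1 h (adjusted p 0.0011) and 0.24 ± 0.08 at 8 h (adjusted p 0.0035) in the authors' deposited table, although its exons overlap those of Irf3 and of a noncoding gene on the opposite strand. Bnip2 was at -0.10 ± 0.04 at 1 h (adjusted p 0.026) and 0.11 ± 0.04 at 8 h (adjusted p 0.0053) in the authors' deposited table. Of the mitophagy receptor genes, Bnip3l rose by 0.14 ± 0.06 at 1 h (adjusted p 0.029) and had -0.01 at 8 h (adjusted p 0.94), while Bnip3 had 0.00 at 1 h (adjusted p 0.99) and 0.11 at 8 h (adjusted p 0.24), in the authors' deposited table. Bcl2l15 had a mean of -0.79 log2 CPM, with 0.25 ± 0.41 at 1 h (adjusted p 0.65) in the authors' deposited table.

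Genes that act on the family were listed in 3 groups. Of 10 genes of the p53 axis in the table, 4 rose and 3 fell at 1 h, and 6 rose and 2 fell at 8 h, with median log2 fold changes of 0.02 and 0.25, beside 20.5% and 22.2% of all genes at 1 h and 27.4% and 28.2% at 8 h. Mdm2, the ubiquitin ligase of p53 and its target, rose by 1.06 ± 0.04 at 1 h (adjusted p 5.2e-160) and 1.27 ± 0.04 at 8 h (adjusted p 3.0e-234) in the authors' deposited table. Mdm4, which holds p53 inactive, had the order of signs of Bcl2l1, with -0.26 ± 0.04 at 1 h (adjusted p 1.3e-11) and 0.33 ± 0.03 at 8 h (adjusted p 2.5e-20) in the authors' deposited table. The phosphatase gene Ppm1d, a p53 target, rose by 0.70 ± 0.05 at 1 h and then fell back to 0.36 ± 0.05 (adjusted p of the fall 1.1e-12) in the authors' deposited table. Chek2, a damage kinase gene, rose by 0.69 ± 0.07 at 8 h (adjusted p 4.0e-21), Chek1 fell to -1.31 ± 0.08 (adjusted p 1.5e-56), and Atm fell to -0.49 ± 0.05 at 1 h (adjusted p 2.5e-21), in the authors' deposited table.

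Of 9 genes of other regulators of BH3-only genes, most of them transcription factors, 7 rose and 1 fell at 1 h, and 6 rose and 3 fell at 8 h, with medians of 0.31 and 0.36, beside the same shares of all genes (20.5% and 22.2%, then 27.4% and 28.2%). Both FOXO genes of this list rose at 8 h, Foxo1 by 0.97 ± 0.07 (adjusted p 8.1e-47) and Foxo3 by 0.70 ± 0.04 (adjusted p 1.2e-59), in the authors' deposited table. At 1 h Foxo3 was up by 0.22 ± 0.04 (adjusted p 4.6e-06) and Foxo1 had 0.03 ± 0.07 (adjusted p 0.80) in the authors' deposited table. The part of the listed regulators in the changes of members was not tested. The stress factor genes Ddit3 (CHOP) and Atf4 rose at 1 h by 1.00 ± 0.11 (adjusted p 3.0e-19) and 0.64 ± 0.04 (adjusted p 3.5e-48) and were at 0.36 ± 0.11 and 0.13 ± 0.04 at 8 h in the authors' deposited table. Of the others, E2f1 had 0.31 ± 0.09 at 1 h (adjusted p 0.0022) and -1.55 ± 0.10 at 8 h (adjusted p 1.2e-50), and Egr1 0.79 ± 0.10 (adjusted p 4.9e-14) and -0.27 ± 0.10 (adjusted p 0.013), in the authors' deposited table. Jun rose at both times, by 0.30 ± 0.04 and 0.41 ± 0.04, and Myc fell at both, to -0.17 ± 0.04 and -0.47 ± 0.04, with adjusted p of 1.3e-05 or less in the authors' deposited table.

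Of 16 genes whose products modify, degrade or bind BCL2 family proteins, 4 rose and 7 fell at 1 h, and 7 rose and 4 fell at 8 h, with medians of -0.05 and 0.02. The 4 that rose at 1 h and the 4 that fell at 8 h, each 25.0% of the list, are near the 20.5% and 28.2% of all genes. MCL1 protein turnover was covered by several. The gene of its ubiquitin ligase MULE, Huwe1, fell to -0.52 ± 0.03 at 1 h (adjusted p 2.6e-53) and was at -0.11 ± 0.03 at 8 h (adjusted p 0.0013) in the authors' deposited table. Its deubiquitinase gene Usp9x fell to -0.53 ± 0.04 at 1 h (adjusted p 2.1e-38) and rose to 0.21 ± 0.04 at 8 h (adjusted p 8.4e-08) in the authors' deposited table. Fbxw7, another ligase gene, rose by 0.40 ± 0.05 at 1 h and 0.42 ± 0.05 at 8 h, and the mitochondrial ligase gene Marchf5 by 0.25 ± 0.04 and 0.49 ± 0.04, with adjusted p of 3.5e-10 or less in the authors' deposited table. The kinase gene Gsk3b had -0.35 ± 0.04 at 1 h (adjusted p 1.0e-16) and 0.11 ± 0.04 at 8 h (adjusted p 0.0098) in the authors' deposited table. Ywhaz, a 14-3-3 gene whose product retains BAD, rose by 0.31 ± 0.03 at 8 h (adjusted p 4.0e-21), and Casp2 fell to -0.49 ± 0.06 (adjusted p 2.3e-14), in the authors' deposited table.

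Downstream of the pore, 3 of 14 genes rose and 3 fell at 1 h, near the 20.5% and 22.2% of all genes, and 6 rose and 3 fell at 8 h, with medians of 0.06 and 0.10. Apaf1, the scaffold of the apoptosome, had -0.12 ± 0.05 at 1 h (adjusted p 0.046) and rose to 0.97 ± 0.05 at 8 h (adjusted p 1.9e-99) in the authors' deposited table. Casp6, a caspase gene, rose by 0.75 ± 0.07 at 8 h (adjusted p 8.1e-26) in the authors' deposited table. Cycs, the gene of cytochrome c, rose by 0.16 ± 0.05 at 1 h (adjusted p 0.0036) and 0.15 ± 0.05 at 8 h (adjusted p 0.0038) in the authors' deposited table. Aifm1 fell by 0.24 ± 0.05 and 0.23 ± 0.04 at the 2 times, with adjusted p of 3.9e-06 and 1.7e-06 in the authors' deposited table. Birc5, which encodes survivin and is also a mitotic gene, had 0.34 ± 0.07 at 1 h (adjusted p 7.6e-06) and fell to -2.42 ± 0.09 at 8 h (adjusted p 1.5e-159) in the authors' deposited table.

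**Figure D4:**
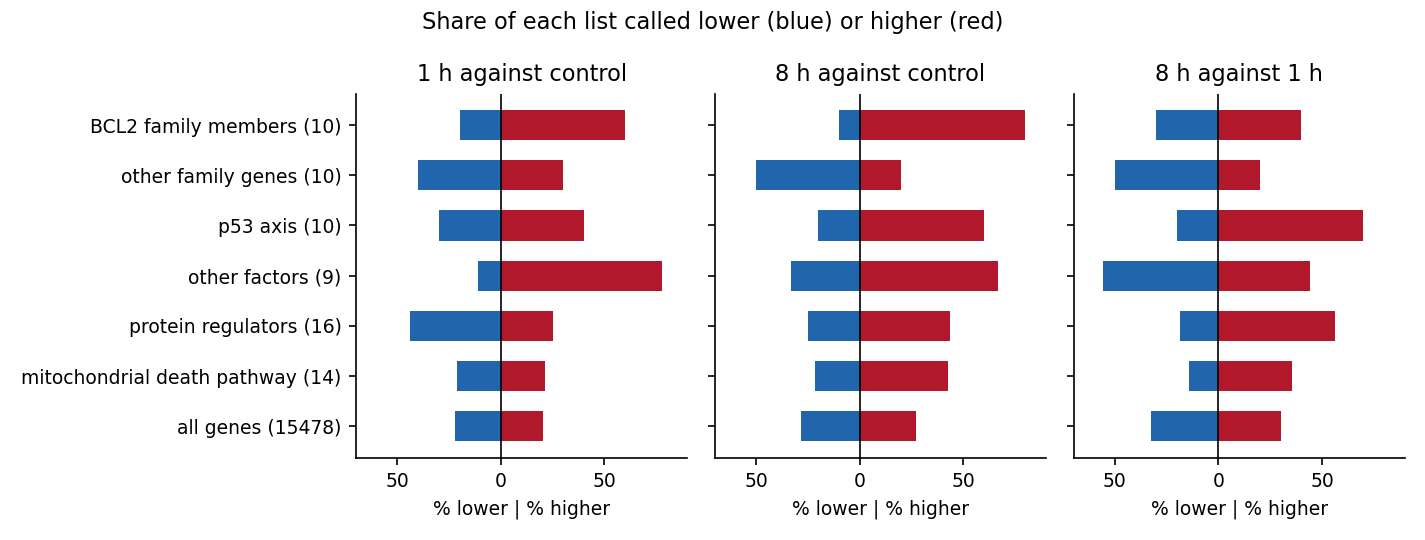
Percentage of the genes of each list called lower (blue, to the left) or higher (red, to the right) in the 3 comparisons of the authors' deposited table, with the number of genes found in parentheses. At 8 h 8 of the 10 members were higher and 1 lower, against 2 and 5 of the 10 other family genes.

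Last, genes with the most similar pair of fold changes were sought by the distance between their log2 fold changes at 1 h and 8 h in the authors' deposited table. The search covered 11715 genes with a mean of at least 1 log2 CPM. Members, genes without a symbol and genes with a placeholder symbol (Gm or Rik number) were left out of it. Both changes use the same controls, and only 2 numbers per gene enter the distance. Nearest to Pmaip1 was Gdf15 at a distance of 0.33, with 1.98 at 1 h and 2.25 at 8 h, then Mab21l3 at 0.56 and Hmcn2 at 0.71, in the authors' deposited table. These distances exceed those of the other members, so few of the genes searched lie close to Pmaip1. For Bbc3 they were Gpr157 (distance 0.03), Chac1 (0.14) and Pygm (0.20), and for Bcl2l11 Bhlhe40 (0.02), Slc16a9 (0.03) and Nr1d1 (0.04), from the authors' deposited table. In the dense middle of the plot, Mcl1 had BC025920, Dmac2l and Fcf1 within 0.004, and Bcl2 had Pou3f4, Adamts19 and Soga1 within 0.02, in the authors' deposited table.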

How the data were processed

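Per the file headers, reads per gene were counted with featureCounts and genes tested in edgeR by a GLM likelihood ratio with tagwise dispersion, on GRCm38 per the submitters' processing notes. Fold changes and mean levels are in log2 units in the authors' deposited table, the level as log2 CPM over all samples. The likelihood ratio is deposited as a test statistic, a score, beside its p-value and the Benjamini-Hochberg adjusted p-value. The other deposited table holds a limma fit on voom values weighted by sample quality, per the file headers, with moderated t as its score. Other deposited columns are the summed exon length and the authors' calls. No sample has a column of its own (0 found), so the authors' tests were used as deposited, and genes were called at an adjusted p below 0.05 over all 15478 genes. The deposited adjusted p matched a recomputed one to within 1.3e-15, and 0 calls differed. No source used here names the aligner, the tool versions, the design formula or the samples removed.

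The implied standard error is the size of the log2 fold change over the root of the likelihood ratio, and for members it was 0.95 to 1.2 times that of the voom fit. The arithmetic was tested on simulated normal values, which cannot show how well the implied standard error holds for the authors' likelihood ratios. Levels were divided by exon length in kb. Coordinates and spans came from GENCODE M21 on GRCm38, which held 15463 of the table's genes, and start site sequences from RefSeq on GRCm38.p6. Python 3.11.15, pandas 2.3.3, numpy 2.4.6 and scipy 1.17.1 were used. The members, lists and motifs were chosen with earlier results of these data known. Named genes are the 10 members, every other family gene found, up to 4 genes per remaining list with the smallest adjusted p at 1 h and at 8 h, and the 3 genes nearest to each of 5 members. A gene that this rule names is not reported here. Alternatives were the voom table, a filter at a mean of 1 log2 CPM, an adjusted p below 0.01, Bonferroni correction and centring on the median of all genes. The deposited gene set results were not used here.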

Additional observations from a re-analysis of the deposited data

Results flagged for a closer look

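RNA levels differed between 1 h and 8 h of peroxide for 7 of the 10 members, by the direct comparison of these groups in the authors' deposited table at an adjusted p below 0.05. Of all genes 30.3% were higher and 32.4% lower in the same comparison, so the count is near that of all genes. Higher at 8 h than at 1 h, on the log2 scale of the authors' deposited table, were Bcl2l1 by 0.72 (adjusted p 4.2e-71), Bax by 0.22 (adjusted p 1.5e-09), Bak1 by 0.22 (adjusted p 7.8e-09) and Mcl1 by 0.14 (adjusted p 0.00054). Lower at 8 h were Bbc3, which fell by 0.98 (adjusted p 9.7e-70), Bcl2l11, which fell by 0.49 (adjusted p 1.6e-17), and Pmaip1, which fell by 0.18 (adjusted p 0.00018), in the authors' deposited table. For Bcl2l1 the direction itself changed, from -0.31 at 1 h to 0.42 at 8 h. How many animals share each direction is unknown, since no values of single samples were analysed here.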

How the results depend on the processing

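No paired analysis was possible because the tables used give tests and no sample's own values. For the same reason leaving out each replicate was not run. Whether the authors' fit paired the samples by animal is unknown, since no source used here names its design formula. The standard errors and adjusted p given here may therefore include differences between animals or leave them out. Every log2 fold change of a member kept its sign in the voom table and after centring on the median of all genes, and none of the 30 member values crossed the threshold under these settings, under the filter on mean level or at an adjusted p below 0.01. The largest difference between the edgeR and voom values was 0.016. Bonferroni correction ended 5 calls, those of Bax, Bid and Mcl1 at 1 h and of Pmaip1 and Mcl1 from 1 h to 8 h, and left 3 members called higher at 1 h in place of 6. Over all genes it left 972 higher and 1573 lower in place of 3166 and 3440 at 1 h, 1947 and 2479 in place of 4243 and 4371 at 8 h, and 2688 and 2748 in place of 4687 and 5021 between the times. The number of samples behind each test and their depth limit what can be said of small changes such as those of Bad and Bak1 at 1 h.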
